A study of Rattus norvegicus with 6 samples.

Results

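Endothelins, nitric oxide synthases and cyclooxygenases set the tone of cerebral vessels, and 10 of their genes were followed here: Edn1, Edn3, Ednra, Ednrb, Ece1, Nos1, Nos2, Nos3, Ptgs1 and Ptgs2. The set was named by gene symbol, and 9 of the 10 were read from a table of 22396 genes. Nos2, the inducible nitric oxide synthase, was not analysed here. All 9 passed the filter on low counts and were among 17096 genes tested. RNA was taken from the basal temporal lobe of adult male Sprague-Dawley rats 24 h after subarachnoid hemorrhage (SAH), which was induced in every animal by injecting its own femoral artery blood into the cisterna magna. The SAH + 6-gingerol group (n = 3) received 6-gingerol, a compound of ginger, at 10 mg/kg into the peritoneum 1 h after the blood, and the SAH + PBS group (n = 3) received the buffered saline vehicle. Rats without SAH were not analysed here. The tissue holds vessels, neurons and glia together, in which fewer cells of a type and less RNA per cell cannot be told apart.

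Endothelin-1, released mainly by endothelium, constricts vessels by acting on the endothelin A receptor of smooth muscle. The endothelin B receptor, which is on endothelium and abundant on astrocytes, binds endothelin-1 and endothelin-3 alike. Nitric oxide from the endothelial and neuronal synthases relaxes smooth muscle through guanylate cyclase and cyclic GMP. Cyclooxygenases turn arachidonic acid into prostaglandin H, from which prostaglandins and thromboxane with opposite actions on vessels are made. These systems are studied in SAH because narrowing of arteries can follow the bleed.

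The 6 libraries held 62762808 to 66761380 counts. In SAH + PBS replicate 2, 15.1% of genes were over 2-fold away from what its 2 group mates averaged, against 1.29% to 7.18% in the other 5 libraries measured likewise, so member fold changes are given with and without it. Summed neuronal markers (10 of 10 found) ran from 9737 to 9887 CPM (TMM-normalized counts scaled to library size) with 6-gingerol and from 4199 to 7758 CPM with PBS, the lowest in SAH + PBS replicate 2. Summed endothelial markers (9 of 10 found, 7 of 8 tested with a negative log2 fold change) ran from 245.7 to 268 CPM with 6-gingerol, against 281, 680 and 291 CPM in SAH + PBS replicates 1, 2 and 3. Cldn5, a tight junction gene of brain endothelium, was listed at 0 in 5 libraries and had 13.4 CPM in SAH + PBS replicate 2. The sums for mural cells of vessels (10 of 10 found) were 255 to 333 CPM with 6-gingerol and 188 to 339 CPM with PBS, those for blood and border macrophages (7 of 8 found) 79.6 to 91.4 CPM and 83.9 to 439 CPM, and those for astrocytes (8 of 8 found) 3357 to 3876 CPM and 4879 to 6515 CPM. In the astrocyte sum Gfap alone, which reactive astrocytes raise, had 539, 440.2 and 314 CPM with 6-gingerol, against 2201, 4407 and 2106 CPM with PBS (adjusted p = 0.289 from edgeR). DESeq2 gave Gfap an adjusted p of 8.41e-12, where 3.92% of genes were called. Without SAH + PBS replicate 2 its log2 fold change was -2.32 (adjusted p = 0.0167 from edgeR, with 0.524% of all genes called). The other 7 astrocyte markers, each with a positive log2 fold change, summed to 3019 to 3337 CPM with 6-gingerol and 2109 to 3036 CPM with PBS. Red cell markers (4 of 6 found) summed to 486 to 740 CPM with 6-gingerol and 257 to 1050 CPM with PBS, and neutrophil markers (9 of 9 found) to 8.31 to 10.2 CPM and 12.4 to 67.5 CPM. Choroid plexus and ependyma markers (7 of 8 found) summed to 12.9 to 16.2 CPM with 6-gingerol, against 1153, 36.8 and 341 CPM in SAH + PBS replicates 1, 2 and 3. Leptomeningeal fibroblast markers (8 of 8 found) summed to 294 to 392 CPM with 6-gingerol, against 186, 605 and 371 CPM in SAH + PBS replicates 1, 2 and 3. The part of these cell types in the results below was not tested.

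The promoters of 3 members are shown because they belong to the members with the smallest p, Nos3 and Ptgs2, and to Edn1, the gene of the vasoconstrictor itself. Each window runs from 250 bases before the transcription start to 50 after it, from RefSeq on build GRCr8, another build than that of the counts. The windows are chr4:11706532-11706831 (minus strand), chr13:64713813-64714112 (plus strand) and chr17:22666638-22666937 (minus strand). Capitals mark matches to TATAAA, the sequence of the TATA box, in Edn1, and to GCGTG, the core of hypoxia response elements, in Ptgs2. Whether these matches act as such elements was not tested.
Nos3: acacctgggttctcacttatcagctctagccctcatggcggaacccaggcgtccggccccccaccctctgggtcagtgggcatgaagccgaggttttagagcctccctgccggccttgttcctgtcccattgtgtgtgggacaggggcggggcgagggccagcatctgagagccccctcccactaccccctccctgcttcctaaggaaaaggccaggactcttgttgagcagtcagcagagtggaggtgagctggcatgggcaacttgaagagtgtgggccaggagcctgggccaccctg
Ptgs2: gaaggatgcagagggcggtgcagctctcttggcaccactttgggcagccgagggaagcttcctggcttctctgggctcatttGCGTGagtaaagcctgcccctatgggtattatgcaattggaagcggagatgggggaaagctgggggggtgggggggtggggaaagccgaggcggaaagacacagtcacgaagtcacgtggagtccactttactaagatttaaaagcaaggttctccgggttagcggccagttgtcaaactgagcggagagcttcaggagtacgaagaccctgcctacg
Edn1: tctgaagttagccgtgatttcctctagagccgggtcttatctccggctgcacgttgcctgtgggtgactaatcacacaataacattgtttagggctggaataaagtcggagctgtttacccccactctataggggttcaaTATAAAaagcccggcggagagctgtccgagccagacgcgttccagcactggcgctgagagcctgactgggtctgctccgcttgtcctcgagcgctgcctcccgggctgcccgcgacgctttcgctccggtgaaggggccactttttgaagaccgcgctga
Of the 9 measured members, 8 had a window in the table, and Edn3 had none there. Each was searched on both strands for TATAAA, TGACGTCA (a cyclic AMP response element), TGANTCA (AP-1), the NF-kB motif, TTCNNNGAA (STAT) and GCGTG, and no matches overlapped one another. TATAAA was found in Edn1 alone of the 8, from base -110 to -105, and in 14.2% of 33469 promoters. GCGTG was found once each in Ednra, Ednrb, Ptgs1 and Ptgs2, and in 29.7% of all promoters. Nos1 held TGACGTCA from base -9 to -2 (1.83% of all promoters) and TGANTCA from base -196 to -190 (7.33%). Neither the NF-kB motif (4.18% of all promoters) nor TTCNNNGAA (8.87%) was in any of the 8 windows, and Nos3 and Ece1 held none of the 6 motifs.

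None of the 9 members passed an adjusted p under 0.05 in edgeR, where 0.0175% of all genes (3 genes) passed. At an unadjusted p under 0.05 there was 1 lower member, Nos3, with 8.71% of all genes lower, and 0 higher members, with 5.22% of all genes higher. DESeq2 also called 0 members at an adjusted p under 0.05, with 3.92% of genes called. Log2 fold changes, given as SAH + 6-gingerol over SAH + PBS, were negative for 8 members and positive for Edn3. Among all genes tested 53.1% were negative. The median of the members was -0.31, against -0.0284 over all genes tested. Edn1, Ednrb and Ptgs1 turned positive without SAH + PBS replicate 2. The 3 rats of each group did not overlap for 2 lower members, Nos3 and Ece1 (13.4% of all genes), and for 1 higher member, Edn3 (13.8% of all genes). The count of 1 lower member became 0 without SAH + 6-gingerol replicate 1, 2 or 3, where 4.46%, 4.11% and 4.18% of all genes were lower. It became 2 without SAH + PBS replicate 1 (Nos3 and Ece1, with 9.04% of all genes lower). With SAH + PBS replicate 3 left out there were 3 lower members (Nos3, Ece1 and Ptgs2, with 14.9% of all genes lower) and 1 higher, Edn3 (9.31% of all genes higher). Without SAH + PBS replicate 2 Ednra was the 1 lower member (7.53% of all genes), and Edn3 and Ptgs1 were 2 higher members (8.02% of all genes). No member passed the adjusted threshold without that rat, where 0.524% of all genes did.

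**Figure D1:**
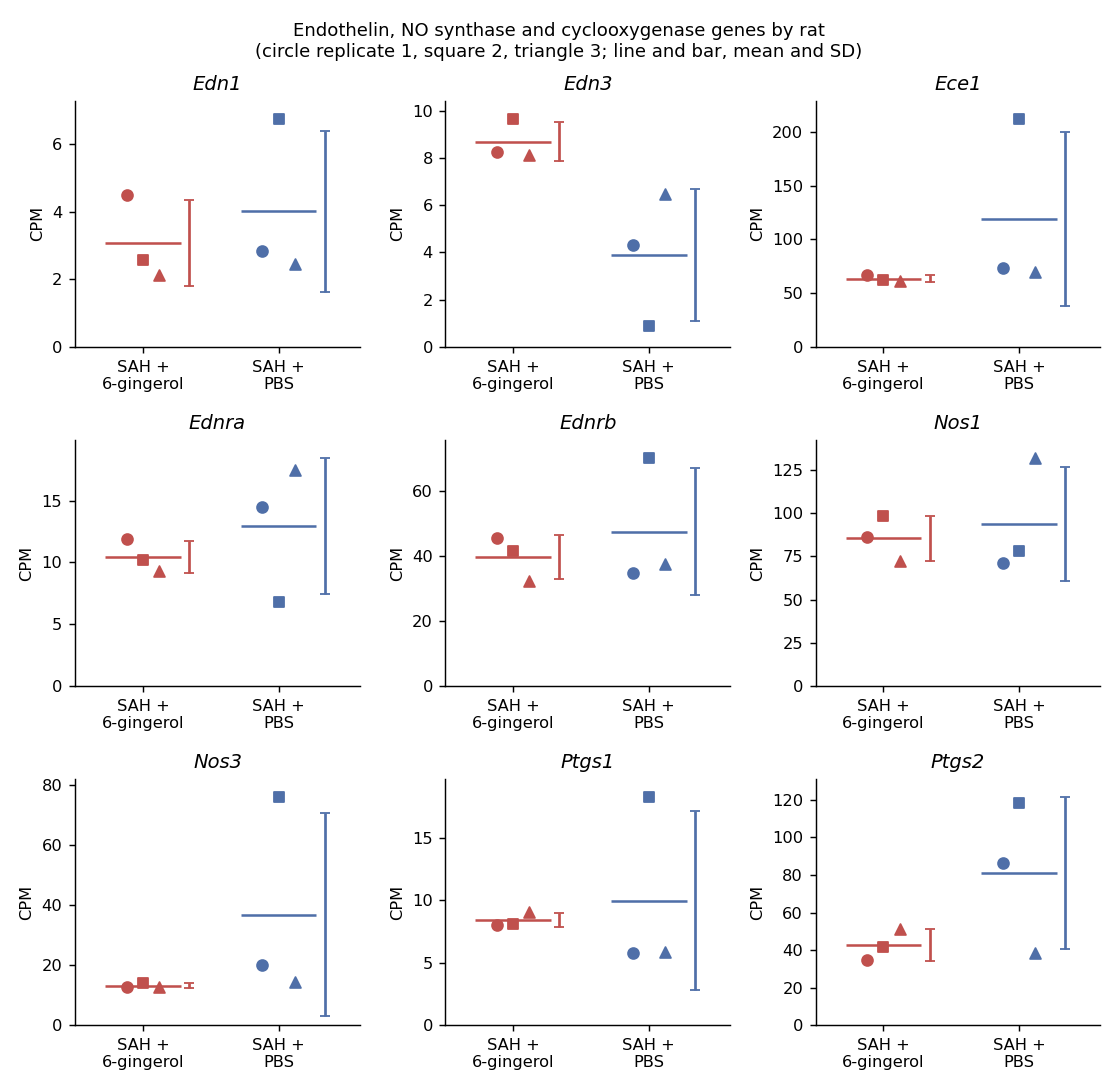
Normalized levels (CPM, axes from 0) of the 9 measured genes in each rat, SAH + 6-gingerol in red and SAH + PBS in blue; marks give the replicate, lines the mean and bars the SD (n = 3). SAH + PBS replicate 2, the blue square, is the highest of the 6 rats in 6 genes and the lowest in Edn3 and Ednra.

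Nos3, the endothelial nitric oxide synthase, lay lower in each SAH + 6-gingerol rat than in any SAH + PBS rat. On Rnor_6.0 it occupies chromosome 4, minus strand, 7320668 to 7342410, ENSRNOG00000009348. Its level was 12.7, 14.1 and 12.8 CPM with 6-gingerol, against 20.2, 75.8 and 14.6 CPM with PBS. The groups were separated by little on the near side, since SAH + PBS replicate 3 was only just above the highest treated rat, while SAH + PBS replicate 2 stood at 4.36 times the average of its 2 group mates. Its log2 fold change was -1.48 (standard error 0.61, unadjusted p = 0.0487, adjusted p = 0.358 from edgeR). Without SAH + PBS replicate 2 it was -0.40 (95% interval -0.80 to 0.00834, adjusted p = 0.33 from edgeR), and over 17 alternative settings the adjusted p ran from 0.11 to 0.646. Endothelial markers were also highest in that rat, with a median log2 fold change of -0.68 with all rats and 0.14 without it, and their part in the Nos3 values was not tested. Atg9b overlaps Nos3 by 362 bases on the opposite strand, but had no more than 0.769 CPM in any library.

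Nos1, the neuronal synthase (chromosome 12, minus strand, 44213943 to 44520341, ENSRNOG00000001130), varied within groups as much as between them. It had 86.3, 98.1 and 72.2 CPM with 6-gingerol and 71.4, 77.9 and 131.7 CPM with PBS. Here SAH + PBS replicate 3, not replicate 2, was the high rat. Between groups the log2 fold change was -0.13 (95% interval -0.75 to 0.49, adjusted p = 0.803 from edgeR), and it was -0.25 without SAH + PBS replicate 2 and 0.19 without SAH + PBS replicate 3. Summed interneuron markers (Sst, Npy, Chodl, Tacr1, Pvalb and Vip), only some of which mark cells that make NOS1, ran from 278 to 331 CPM with 6-gingerol and from 227 to 305 CPM with PBS. Sst, most of that sum, had 209, 205 and 199 CPM with 6-gingerol, against 173, 181 and 151 CPM with PBS (log2 fold change 0.28, unadjusted p = 0.0362, adjusted p = 0.349 from edgeR). It was the 1 marker of the 6 at an unadjusted p under 0.05, with 5.22% of all genes higher. Of the 6, 5 had a positive log2 fold change and 1, Npy, a negative one (-0.67, with 73.3 CPM in SAH + PBS replicate 2). The part of these interneurons in the Nos1 values was not tested. Nos1 shares 32495 bases with Fbxo21 on the same strand, so reads there could be given to either gene.

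Ptgs2, the inducible cyclooxygenase, which in brain is also made by active neurons, had a lower mean with 6-gingerol, yet the groups overlapped. It lies on the plus strand of chromosome 13, from 67351087 to 67359335, ENSRNOG00000002525. The SAH + 6-gingerol rats had 34.9, 41.5 and 51.5 CPM, against 86.2, 118 and 38.3 CPM with PBS. SAH + PBS replicates 1 and 2 were above all treated rats, and replicate 3 fell among them. This gave a log2 fold change of -0.92 (standard error 0.40, unadjusted p = 0.0553, adjusted p = 0.364 from edgeR), and -0.55 (95% interval -1.37 to 0.27) without SAH + PBS replicate 2.

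Ptgs1, the constitutive cyclooxygenase found in brain mainly in microglia, had a direction that turned on a single rat. On the plus strand of chromosome 3 (15560712 to 15582344, ENSRNOG00000007415), it had 8.06, 8.12 and 9.09 CPM with 6-gingerol, against 5.83, 18.2 and 5.88 CPM with PBS. The treated rats were all above SAH + PBS replicates 1 and 3 and all below replicate 2. With all rats the log2 fold change was -0.24 (95% interval -1.37 to 0.88, adjusted p = 0.8 from edgeR). Without SAH + PBS replicate 2 it was 0.53 (95% interval 0.16 to 0.90, unadjusted p = 0.0129, adjusted p = 0.193 from edgeR). Microglial markers (7 of 8 found) summed to 281 to 293 CPM with 6-gingerol and 279 to 305 CPM with PBS, so their sum did not follow that rat, in which Ptgs1 stood at 3.12 times the average of its 2 group mates.

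Edn1, the precursor gene of endothelin-1, did not separate the groups. It lies on the minus strand of chromosome 17, from 22137324 to 22143324, ENSRNOG00000014361, with levels of 4.51, 2.58 and 2.14 CPM with 6-gingerol, against 2.84, 6.75 and 2.45 CPM with PBS. A single rat was high in each group, SAH + 6-gingerol replicate 1 and SAH + PBS replicate 2. Its raw counts, 128 to 284 with 6-gingerol and 162 to 465 with PBS, were the smallest of the 9 genes in the treated rats. The log2 fold change was -0.38 (95% interval -1.56 to 0.79, adjusted p = 0.695 from edgeR), and 0.22 (95% interval -0.66 to 1.097) without SAH + PBS replicate 2.

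Edn3, the precursor gene of endothelin-3, a ligand that prefers the B receptor, was the only member higher in every treated rat. On the plus strand of chromosome 3 (172856733 to 172880450, ENSRNOG00000007477), it had 8.27, 9.64 and 8.14 CPM with 6-gingerol, against 4.30, 0.900 and 6.45 CPM with PBS. SAH + PBS replicate 2 was by far the lowest, at 0.167 of the average of its 2 group mates. The ratio of the group means was 2.24, and its log2 fold change 1.16 (standard error 0.63, unadjusted p = 0.111, adjusted p = 0.407 from edgeR). Without SAH + PBS replicate 2 the log2 fold change was 0.69 (95% interval 0.15 to 1.24, unadjusted p = 0.0202, adjusted p = 0.23 from edgeR), and the groups still did not overlap.

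Ece1, the protease that cuts big endothelin-1 to its active form, also lay lower in every treated rat, by a small margin. It lies on the plus strand of chromosome 5, from 156215417 to 156318671, ENSRNOG00000014241, with 67.1, 62.3 and 61.6 CPM with 6-gingerol, against 73.9, 212 and 69.9 CPM with PBS. SAH + PBS replicate 2 stood at 2.95 times the average of its 2 group mates, which were close to each other and to the treated rats. It had a log2 fold change of -0.90 (standard error 0.44, unadjusted p = 0.0825, adjusted p = 0.387 from edgeR). Without SAH + PBS replicate 2 it was -0.17 (95% interval -0.36 to 0.0150, adjusted p = 0.36 from edgeR).

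Ednra, the receptor through which endothelin-1 constricts, was like Edn3 lowest in SAH + PBS replicate 2. On the plus strand of chromosome 19 (33928356 to 33991703, ENSRNOG00000012721), it had 11.9, 10.2 and 9.29 CPM with 6-gingerol, against 14.5, 6.84 and 17.5 CPM with PBS. The treated rats lay between SAH + PBS replicate 2 and the other 2 SAH + PBS rats. Its log2 fold change was -0.31 (95% interval -1.14 to 0.52, adjusted p = 0.649 from edgeR), and -0.61 (95% interval -1.005 to -0.22, unadjusted p = 0.00831, adjusted p = 0.169 from edgeR) without SAH + PBS replicate 2.

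Ednrb, the B receptor gene (chromosome 15, minus strand, 88006977 to 88036354, ENSRNOG00000010997), had 45.6, 41.7 and 32.4 CPM with 6-gingerol, against 34.8, 70.2 and 37.7 CPM with PBS. Apart from SAH + PBS replicate 2 the rats of both groups were interspersed. The log2 fold change was -0.25 (95% interval -0.97 to 0.46, adjusted p = 0.667 from edgeR), and 0.14 (95% interval -0.24 to 0.52) without that rat. All of Ednrb lies within the deposited bounds of Mycbp2 on the same strand, so reads there could be given to either gene. Mycbp2 had 396, 427 and 442 CPM with 6-gingerol and 349, 250 and 402 CPM with PBS. The lowest rat for Mycbp2 was the highest for Ednrb, and the part of shared reads was not tested.

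**Figure D2:**
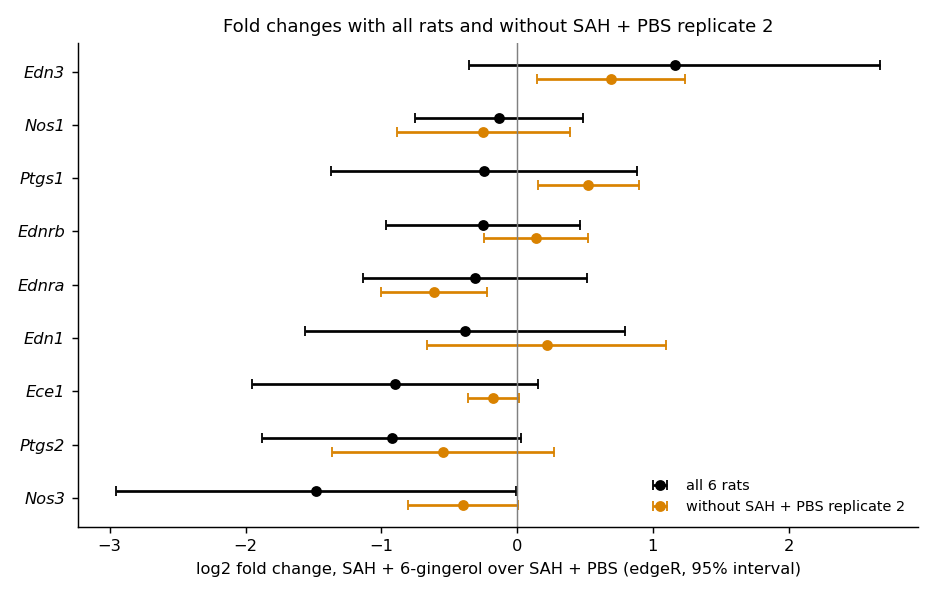
Log2 fold changes of the 9 genes, SAH + 6-gingerol over SAH + PBS, with 95% intervals from edgeR, for all 6 rats (black) and without SAH + PBS replicate 2 (orange). Edn1, Ednrb and Ptgs1 change sign between the fits, and Nos3 goes from -1.48 with all rats to -0.40.

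The spread within the SAH + PBS group was wide for these genes. The median coefficient of variation over the 9 was 12.5% in the SAH + 6-gingerol rats, against 59.2% in the SAH + PBS rats, while over all genes tested it was 9.82% and 23.2%. SAH + PBS replicate 2 was the highest or lowest of the 6 rats in 8 of the 9, as it was for 72.1% of all genes tested. In that rat Nos3 was 1.98, Ece1 1.39, Ptgs1 1.105, Ptgs2 1.09, Edn1 1.06 and Ednrb 0.73 above the mean of the 6 rats on the log2 scale. Edn3 was at -2.48, Ednra at -0.71 and Nos1 at -0.17. Without that rat the median log2 fold change over the 9 genes was -0.17, against -0.0135 over all genes tested.

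**Figure D3:**
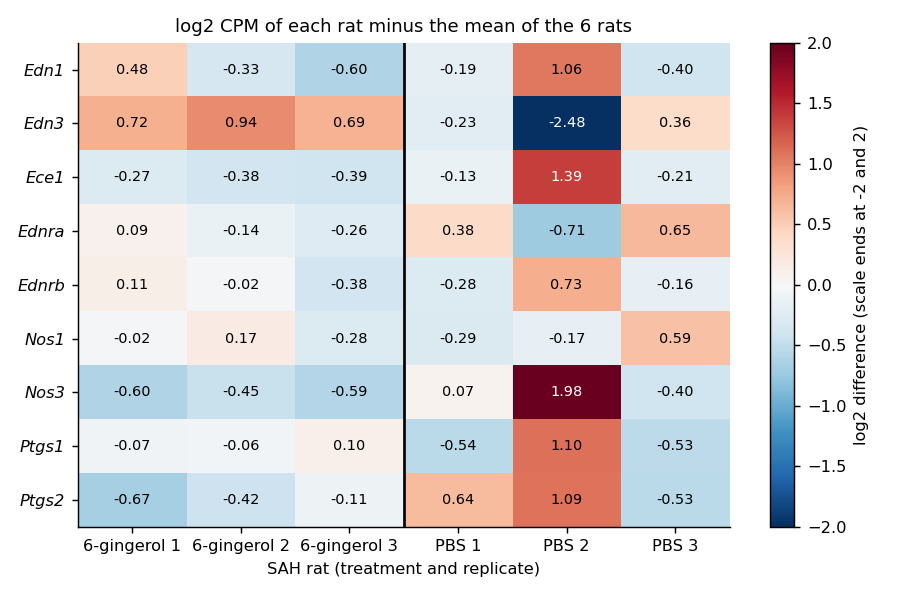
Log2 CPM of each gene (rows) in each rat (columns) minus the mean of the 6 rats, red above and blue below, with the colour scale ending at -2 and 2. The column of SAH + PBS replicate 2 runs from -2.48 for Edn3 to 1.98 for Nos3, while the 3 columns of the SAH + 6-gingerol rats stay between -0.67 and 0.94.

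Levels of different genes were set side by side per length, as FPKM, the deposited values scaled by gene length and depth. In the SAH + 6-gingerol rats Ednrb was highest, at 19.2 ± 3.33 FPKM (SD, n = 3), then Ece1 (13.1 ± 0.642), Nos1 (12.01 ± 1.89), Ptgs2 (9.34 ± 1.79), Edn3 (4.37 ± 0.443), Ptgs1 (2.88 ± 0.183), Nos3 (2.35 ± 0.151), Edn1 (2.12 ± 0.874) and Ednra (1.97 ± 0.251). The ranges of neighbours overlapped for Ece1 and Nos1, Nos1 and Ptgs2, Nos3 and Edn1, and Edn1 and Ednra, and not for the other 4 pairs. In the SAH + PBS rats the order was Ece1 (26.9 ± 19.1 FPKM), Ednrb (25.0 ± 11.1), Ptgs2 (19.5 ± 10.1), Nos1 (14.2 ± 4.68), Nos3 (7.25 ± 6.85), Ptgs1 (3.76 ± 2.80), Edn1 (3.04 ± 1.89), Ednra (2.63 ± 1.06) and Edn3 (2.09 ± 1.48). There all 8 pairs of neighbours overlapped, so that order is not resolved. Edn3 stood above Edn1 in each SAH + 6-gingerol rat (4.16, 4.87 and 4.07 FPKM, against 3.12, 1.79 and 1.47 FPKM for Edn1).

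For the balance of the cyclooxygenases the groups did not overlap. The ratio of Ptgs2 to Ptgs1 in FPKM was 2.78, 3.27 and 3.63 in the SAH + 6-gingerol rats, against 9.48, 4.16 and 4.18 in the SAH + PBS rats. SAH + PBS replicate 1 had the highest ratio, and replicate 2, in which both genes were high, stood beside replicate 3. By exact permutation (2-sided) p was 0.1, the lowest possible with 3 rats per group, and p = 0.4 after Benjamini-Hochberg adjustment over the 4 ratios computed (exact test). The ratio of Ednra to Ednrb was 0.102, 0.0956 and 0.113 with 6-gingerol, against 0.164, 0.0383 and 0.182 with PBS, so the treated rats lay between the extremes of the others. The ratio of Nos1 to Nos3 was 5.37, 5.49 and 4.44 with 6-gingerol, against 2.79, 0.810 and 7.13 with PBS, and that of Edn1 to Ece1 was 0.225, 0.139 and 0.116, against 0.129, 0.107 and 0.118. For these 3 ratios the groups overlapped, with exact permutation p from 0.3 to 1.0, or 0.533 to 1.0 after adjustment.

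**Figure D4:**
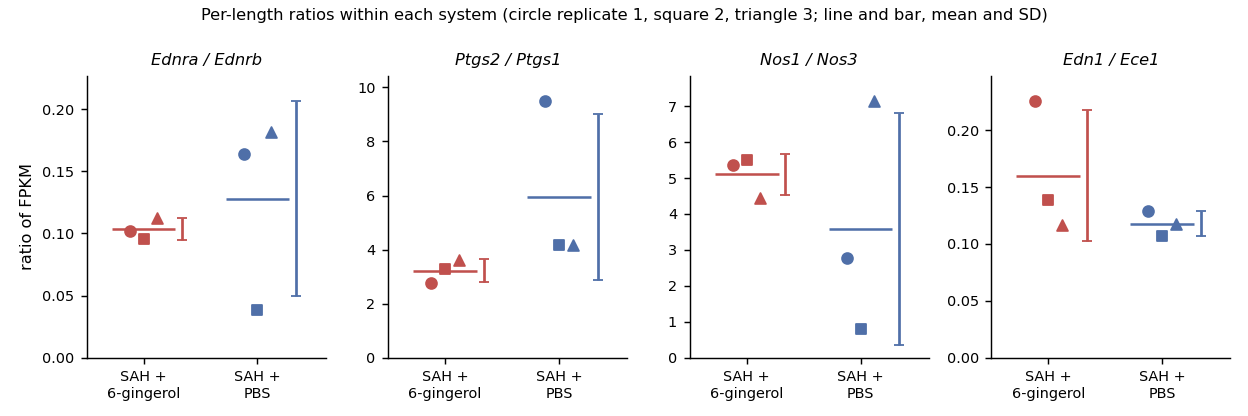
Ratios of per-length levels (FPKM, axes from 0) for 4 pairs of genes in each rat, SAH + 6-gingerol in red and SAH + PBS in blue, with lines at the mean and bars for the SD (n = 3). The Ptgs2 to Ptgs1 ratio is at most 3.63 with 6-gingerol and at least 4.16 with PBS, whereas the other 3 ratios overlap.

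Around these members, genes of prostaglandin synthesis, transport and reception had mostly negative fold changes (15 of 22, against 53.1% of all genes tested), although none passed an adjusted p under 0.05 in edgeR. Of 22 other prostaglandin genes tested, 4 were lower and 0 higher at an unadjusted p under 0.05 (8.71% and 5.22% of all genes), and the median log2 fold change was -0.47 (-0.30 without SAH + PBS replicate 2). Pla2g4a, the phospholipase that frees arachidonic acid, had 5.64, 4.12 and 3.78 CPM with 6-gingerol, against 8.49, 12.2 and 9.54 CPM with PBS, without overlap and without reliance on the outlying rat. Its log2 fold change was -1.16 (standard error 0.24, unadjusted p = 0.00248, adjusted p = 0.334 from edgeR), and -0.998 without SAH + PBS replicate 2. Ptges, the inducible prostaglandin E synthase, had 1.27, 1.34 and 0.334 CPM with 6-gingerol, against 4.37, 37.4 and 2.27 CPM with PBS. Its log2 fold change was -3.90 with all rats (adjusted p = 0.347 from edgeR) and -1.76 without SAH + PBS replicate 2, which held most of the signal. Tbxas1, thromboxane synthase, had 2.07, 2.17 and 0.552 CPM, against 4.27, 8.39 and 4.59 CPM (log2 fold change -1.85, adjusted p = 0.347 from edgeR, and -1.47 without that rat). Slco2a1, a prostaglandin transporter of brain endothelium, had 4.43, 6.55 and 6.59 CPM, against 7.61, 61.0 and 13.4 CPM (log2 fold change -2.22, and -0.84 without SAH + PBS replicate 2). DESeq2 called these 4 lower, with adjusted p from 0.00193 to 0.039, where 3.92% of all genes were called in either direction. The 4 were named because they had the smallest edgeR p of the list.

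Of 25 other genes of nitric oxide supply and signaling tested, none passed in edgeR, with 2 lower and 3 higher at an unadjusted p under 0.05 (8.71% and 5.22% of all genes) and a median log2 fold change of -0.10 (-0.0675 without SAH + PBS replicate 2). The lower genes were Gch1 and Asl. Gch1, the first enzyme of tetrahydrobiopterin synthesis, a cofactor of all nitric oxide synthases, had 1.097, 0.668 and 1.07 CPM with 6-gingerol, against 3.82, 8.96 and 1.14 CPM with PBS (log2 fold change -2.29, adjusted p = 0.347 from edgeR and 0.0265 from DESeq2; -1.39 without SAH + PBS replicate 2). Asl, which makes arginine, had 12.9, 13.03 and 13.9 CPM, against 17.1, 25.1 and 18.2 CPM (log2 fold change -0.60, adjusted p = 0.347 from edgeR, and -0.41 without that rat). The higher genes were Gucy1b3, Prkg2 and Gucy1a2. Gucy1b3, a subunit of the guanylate cyclase that nitric oxide activates, had 214, 212 and 220.2 CPM with 6-gingerol, against 160.4, 80.3 and 159 CPM with PBS (log2 fold change 0.70, adjusted p = 0.349 from edgeR, and 0.44 without SAH + PBS replicate 2). Prkg2, a cyclic GMP-dependent kinase, had 30.5, 44.9 and 37.1 CPM, against 17.0, 22.3 and 27.5 CPM (log2 fold change 0.75, adjusted p = 0.347 from edgeR, and 0.76 without that rat). The third was the cyclase subunit Gucy1a2 (0.67, adjusted p = 0.357 from edgeR, and 0.42 without SAH + PBS replicate 2). Neuronal markers also had positive log2 fold changes, in 10 of 10 with a median of 0.57, and their part in the values of these 3 genes was not tested.

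Of 13 other genes of endothelin processing and receptor coupling tested, 0 were lower and 1 was higher at an unadjusted p under 0.05 (8.71% and 5.22% of all genes), none passed in edgeR, and the median log2 fold change was 0.26 (0.0991 without SAH + PBS replicate 2). The higher gene was Plcb1, a phospholipase C that Gq-coupled receptors activate, abundant in neurons, with 261, 275 and 302 CPM with 6-gingerol, against 178, 91.6 and 194 CPM with PBS (log2 fold change 0.85, adjusted p = 0.347 from edgeR, and 0.59 without SAH + PBS replicate 2).

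**Figure D5:**
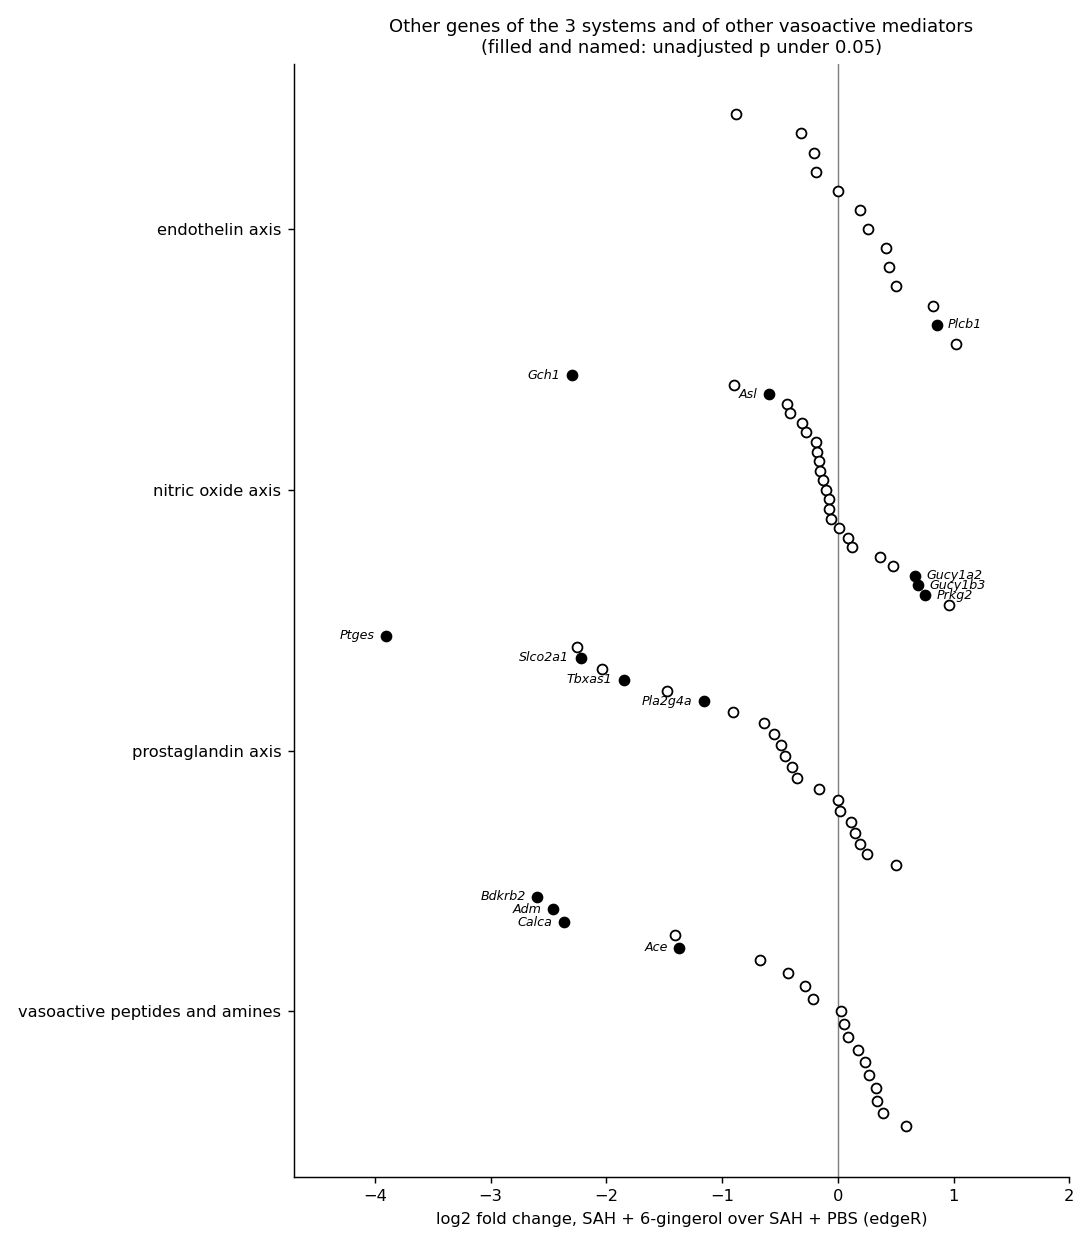
Log2 fold changes (edgeR, SAH + 6-gingerol over SAH + PBS) of the other genes tested in each system and of other vasoactive mediators, each dot a gene, ordered within its list. Filled, named dots have an unadjusted p under 0.05: 4 lower and 0 higher prostaglandin genes, 2 lower and 3 higher nitric oxide genes, 1 higher endothelin gene and 4 lower other mediators, none past the adjusted threshold.

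The genes whose profile over the 6 rats was most like that of Nos3 and of Ptgs2 were sought among 14790 genes of at least 1 CPM on average, by the root-mean-square difference of mean-centred log2(CPM + 0.5). For Nos3 they were Cd300a (0.0788), Creg1 (0.0868) and Pawr (0.106). Creg1 had 25.0, 25.7 and 24.6 CPM with 6-gingerol, against 43.3, 134 and 27.2 CPM with PBS, with the same single high rat as Nos3. For Ptgs2 they were Irak2 (0.0726), Ppp2r1b (0.0965) and Pfkfb3 (0.112). Irak2 had 6.84, 7.95 and 8.81 CPM with 6-gingerol, against 16.8, 23.7 and 6.82 CPM with PBS. Over 6 rats such likeness is a description only.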

How the data were processed

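RNA of 3 SAH + 6-gingerol and 3 SAH + PBS rats was read with 1 library per rat. Groups and replicate numbers come from the sample titles, which place the treatment beside the column names (Control for SAH + 6-gingerol, SAH for SAH + PBS). The files hold no independent check of this pairing, and an exchange of the names would turn every sign. Per the labels and values, the authors deposited raw counts and FPKM per gene, and 0 columns of values were unmatched. The submitters' processing notes list limma 3.32.10, HISAT2 2.1.0 and StringTie 1.3.3b beside Rnor_6.0 without roles, and the methods of the study name STAR and DESeq2. The sources used here do not give the read counter or its strand setting, so overlapping genes may share reads. Counts were compared in edgeR 4.0.16 (R 4.3.3) with filterByExpr (minimum count 10, total 15), TMM and the quasi-likelihood test with no block, and p-values were adjusted by Benjamini-Hochberg over the 17096 genes tested. The standard error is the absolute log2 fold change over the square root of F. CPM are TMM-normalized. For distances between gene profiles, and for the departure of a library from its group mates, 0.5 CPM was added. FPKM served for levels between genes and their ratios, and for the alternative fits on log2(FPKM + 1) and log2(FPKM + 0.1). Alternatives used DESeq2 1.42.0, limma 3.58.1, other scaling and filters, each rat left out and a replicate block. The fit was run on simulated counts that held no outlying rat, so that run does not cover data with a rat like SAH + PBS replicate 2. Members and gene lists were chosen with earlier results of these data known. Of each pathway list the genes with the smallest unadjusted p under 0.05, up to 4, were named, and Gucy1a2 was named after its values were seen.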

Additional observations from a re-analysis of the deposited data

How the results depend on the processing

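The count of members called at an adjusted p under 0.05 was 0 in each of 17 alternative settings, and adjusted p ran from 0.11 to 0.993. Of 152 member fold changes in these settings 144 kept their direction. With sample quality weights in limma-voom Edn1 was at 0.0511, Ednrb at 0.134, Nos1 at 0.0748 and Ptgs1 at 0.44, all turned positive. Leaving out single rats moved Edn1 between -0.76 and 0.22, Ednrb between -0.43 and 0.14, Nos1 between -0.29 and 0.19 and Ptgs1 between -0.52 and 0.53. Lower members at an unadjusted p under 0.05 were 2 with library totals or with no filter, 3 in DESeq2 and with quality weights, and 0 in limma-voom, on log2(FPKM + 1) with or without a filter, on log2(FPKM + 0.1) and with the replicate block. Over single rats left out they ran from 0 to 3. Higher members were 1 in DESeq2 and in limma-voom with or without weights, and 0 to 2 with single rats left out. For settings other than single rats left out, no share of all genes at that threshold is given here. The counts in those settings are therefore not a result about the members. Calls over all genes were 668 in DESeq2, 147 with quality weights, 5 on log2(FPKM + 0.1), 0 at 1 CPM in every rat and 0 with the block, and 0 to 91 with single rats left out. DESeq2 called 1 of 25 nitric oxide, 4 of 22 prostaglandin and 3 of 19 other vasoactive genes lower. It called 3.92% of all genes with an adjusted p, in either direction. Quality weights called 1 of the other vasoactive genes lower, with 147 calls over all genes. Leaving out single rats gave 0 to 1, with 0 to 91 calls over all genes. A minimum of 1 CPM in every rat left Edn3 untested. Scaling by library totals moved the median of all genes to -0.148. The causes were not tested. Same-numbered rats deviated with correlations of -0.0453, 0.00621 and 0.0151, so no pairing by number was seen. With 3 rats a group this cannot exclude a pairing. With the replicate block Nos3 was at -1.08, Ptgs2 at -0.81, Ece1 at -0.68 and Edn3 at 1.49, and no member changed its call. With 3 rats a group the smallest exact permutation p is 0.1.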

Other observations

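Among 19 tested genes of other vasoactive peptides and amines, 4 were lower and 0 higher at an unadjusted p under 0.05 (8.71% and 5.22% of all genes), and none passed in edgeR. The median log2 fold change was 0.0240, and -0.0873 without SAH + PBS replicate 2. Ace, the angiotensin converting enzyme, had 13.9, 13.3 and 12.8 CPM with 6-gingerol, against 42.1, 39.9 and 21.2 CPM with PBS, without overlap (log2 fold change -1.37, standard error 0.27, adjusted p = 0.334 from edgeR and 0.000538 from DESeq2). It was -1.25 without SAH + PBS replicate 2. Choroid plexus and ependyma markers were high in SAH + PBS replicates 1 and 3 (1153 and 341 CPM), and their part in the Ace values was not tested. Adm, the vasodilator adrenomedullin, had 1.81, 1.06 and 1.27 CPM, against 4.66, 15.2 and 2.97 CPM (log2 fold change -2.46, adjusted p = 0.343 from edgeR and 0.00357 from DESeq2), and -1.47 without SAH + PBS replicate 2. Bdkrb2, the bradykinin B2 receptor, and Calca, which encodes calcitonin and the vasodilator CGRP, were at -2.60 and -2.36, with overlap between the groups. Without SAH + PBS replicate 2 they were at -1.17 and -0.71.

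Vascular members were also set against 8 endothelial markers, a comparison chosen after their values were seen. Per 100 CPM of these markers Nos3 had 4.87, 5.73 and 4.78 CPM with 6-gingerol, against 7.19, 11.4 and 5.01 CPM with PBS, so the groups overlapped while SAH + PBS replicate 2 remained the highest. Ece1 had 25.8, 25.3 and 23.0 CPM, against 26.3, 31.8 and 24.1 CPM, and Edn1 1.74, 1.05 and 0.798 CPM, against 1.01, 1.01 and 0.845 CPM. No test was run on these ratios.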
